A study of Arabidopsis thaliana with 8 samples.

Results

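The genes described here belong to 3 families of plant enzymes and lectins: beta-glucosidases (BGLU), jacalin-related lectins (JAL) and serine carboxypeptidase-like proteins (SCPL). Members were every gene whose symbol begins with BGLU, JAL or SCPL followed by a number and that had a probe set naming this gene alone. This gave 53 genes, 20 BGLU, 4 JAL and 29 SCPL, of the 13356 genes measured under a name. The gene table holds 94 such symbols, 40 BGLU, 5 JAL and 49 SCPL, so the remainder were not analysed here, and each member had a single probe set. Members were picked by name, but the families were chosen with earlier results of these data known. Shares of members set beside those of all probe sets are therefore descriptive and carry no test.

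The samples were aerial parts of Arabidopsis thaliana seedlings of the accession Col-0, aged 12 days and untreated. Plants of 4 genotypes were compared on Affymetrix ATH1 arrays, with 2 arrays each: wild type (WT), knockouts of JMJ24 or of IBM1 alone, and the double knockout that lacks both genes. The labels name no knockout alleles. Nor do they say whether replicate arrays stand for separate batches of plants, and the p-values therefore cover the spread among these arrays, part of which may be technical. Values are given for replicate 1 and then replicate 2. JMJ24 and IBM1 are jumonji proteins, a family that includes histone demethylases, and IBM1 is known to keep methylation of histone H3 lysine 9 out of transcribed genes.

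Beta-glucosidases of this family cut glucose from glucosides, the form in which plants store many defence compounds, hormones and lignin precursors. Jacalin-related lectins bind sugars, and several of them join the beta-glucosidase PYK10 of endoplasmic reticulum (ER) bodies in large complexes when cells break. SCPL proteins resemble serine carboxypeptidases, which trim proteins from their carboxyl end, while some members of the family act as acyltransferases that use glucose esters to build compounds such as sinapate esters.

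All levels are log2 values, so that a difference of 1 is a doubling, and levels of different probe sets cannot be set against each other. Over 22746 probe sets, which are not independent, the correlation of the replicates was 0.993 for WT, 0.992 and 0.99 for the JMJ24 and IBM1 knockouts, and 0.988 for the double knockout. The arrays of WT, the JMJ24 knockout and the double knockout did not sort cleanly by genotype. JMJ24 knockout replicate 1 and double knockout replicate 2 correlated at 0.994, and JMJ24 knockout replicate 2 and double knockout replicate 1 at 0.993. WT replicate 2 and JMJ24 knockout replicate 2 correlated at 0.994, above the 0.993 of the WT replicates. Array values are given for this reason beside each difference. Of the tissue markers, the shoot gene LHCB4.2, a chlorophyll-binding protein, lay between 12.59 and 12.89 on all arrays, and the root hair genes EXPA7 and EXPA18 lay between 2.21 and 2.33, at or below each array's lower quartile (2.49 to 2.53). The other 9 shoot, 6 root and all 5 seed markers had no probe set under their name and were not analysed here.

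Some members, like some of all probe sets, gave little or no signal in this tissue. Of the 53 genes, 11 (1 BGLU and 10 SCPL) had all 8 values at or under that quartile, 3 had some there and 39 had none. Of all 22746 probe sets, 4221 had all 8 values there, 2491 had some and 16034 had none. A group mean of at least 5 was reached by 20 genes, among them 5 BGLU, all 4 JAL and 11 SCPL. It was reached by 7286 of all 22746 probe sets. The range of a gene over the 8 arrays had a median of 0.54, beside 0.41 over all probe sets, and exceeded 1 for 11 of 53 genes (20.8%), beside 8.66% of all probe sets. Those 11 were 6 of 20 BGLU, 1 of 4 JAL and 4 of 29 SCPL. The median gap between the replicates of a member was 0.036 for WT, 0.105 and 0.134 for the JMJ24 and IBM1 knockouts, and 0.109 for the double knockout. Over all probe sets it was 0.0785, 0.0813, 0.0975 and 0.105 in the same order, so the low WT gap was not seen there.

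**Figure D1:**
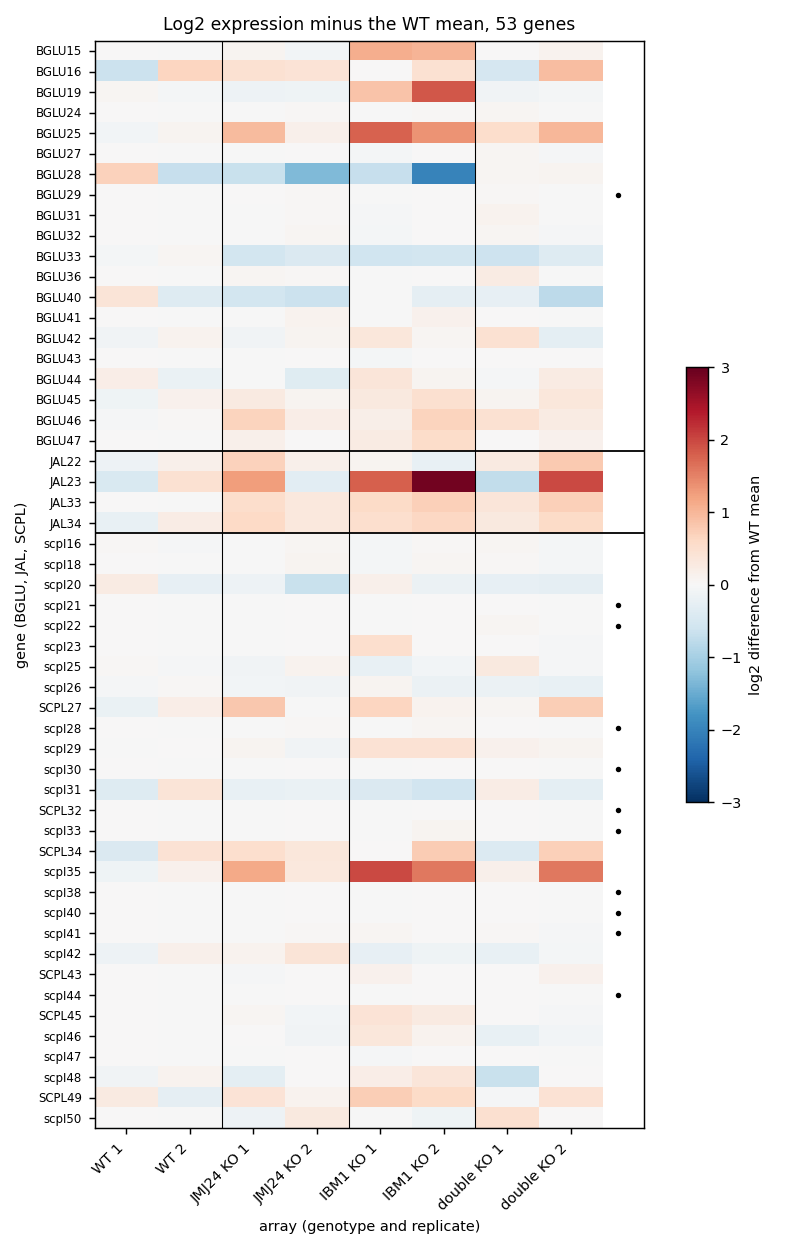
Difference of each array from the WT mean (log2, colour) for the 53 genes, grouped by family, with the 8 arrays in columns. Dots at the right mark the 11 genes at or below the lower quartile on all 8 arrays, and the IBM1 knockout columns of BGLU15, BGLU19, BGLU25, JAL23 and scpl35 average at least 1 above WT.

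The comparison of the IBM1 knockout with WT asked which members respond to the loss of IBM1 alone. One of the 53 genes, BGLU15, passed the test (limma, Benjamini-Hochberg adjusted p under 0.05 over all probe sets), where 0.334% of all probe sets did. A difference of at least 1 upward was seen for 5 genes, BGLU15, BGLU19, BGLU25, JAL23 and scpl35 (9.43% of the members, beside 1.36% of all probe sets), and downward for BGLU28 alone (1 of 53, beside 0.431%). An unadjusted p under 0.05 was found for 12 members (22.6%, beside 14.4% of all probe sets), of which 11 were higher in the IBM1 knockout and BGLU33 was lower. The IBM1 knockout and WT arrays did not overlap for 22 members (41.5%), 17 of them higher and 5 lower in the IBM1 knockout, against a background of 37.8% of all probe sets. The share without overlap was thus near that of all probe sets. A difference of less than 0.25 was found for 33 of the 53 genes, beside 16679 of 22746 probe sets.

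BGLU15 (AT2G44450), an enzyme that removes glucose from flavonol bisglycosides, rose in the IBM1 knockout. It measured 3.15 and 3.13 on the WT arrays, 3.23 and 3.05 with JMJ24 lost, 4.22 and 4.15 with IBM1 lost and 3.14 and 3.25 with both lost. Both IBM1 knockout arrays stood above the other 6, which lay close together. The mean went from 3.14 ± 0.0132 (SD, n = 2) in WT to 4.19 ± 0.0507 (SD, n = 2), a log2 difference of 1.05 (SE 0.0741) or 2.07-fold, with a limma adjusted p of 0.0271. In bulk tissue, a change in the number of cells that express a gene cannot be told apart from a change in RNA per cell, here and for the genes below. The double knockout was lower than the IBM1 knockout by 1.99-fold (log2 difference -0.99, limma adjusted p = 0.028), with a mean of 3.20 ± 0.0729 (SD, n = 2) close to that of the JMJ24 knockout, 3.14 ± 0.125 (SD, n = 2).

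The BGLU15 difference kept its size but not its call when arrays were left out. With any 1 of the 8 arrays left out, the IBM1 knockout minus WT difference stayed between 1.01 and 1.08, and the limma adjusted p lay above the threshold, from 0.051 without either JMJ24 knockout array to 0.145 without either WT array. It was 0.0528 and 0.0764 without IBM1 knockout replicates 1 and 2, and 0.0559 without either double knockout array. Likewise, the difference between double and IBM1 knockout ran from -1.04 to -0.94 with adjusted p from 0.0608, without IBM1 knockout replicate 1, to 0.183, without double knockout replicate 1. With the replicate number as a block, the adjusted p was 0.0757 for the IBM1 knockout against WT and 0.0939 for the double against the IBM1 knockout.

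**Figure D2:**
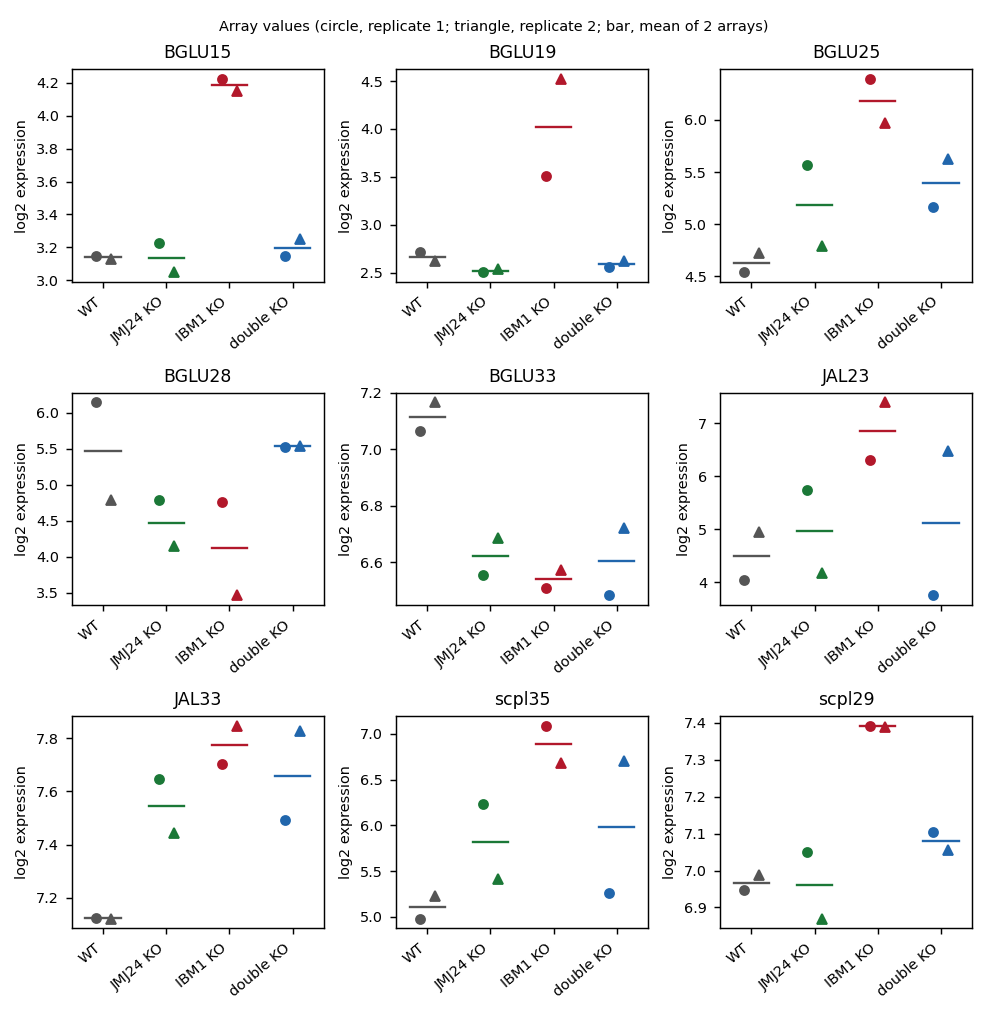
Log2 level on each of the 8 arrays (circle for replicate 1, triangle for replicate 2, by genotype) with the genotype mean (bar) for 9 members. The BGLU15 points of the IBM1 knockout, 4.22 and 4.15, stand apart from the 6 others, whereas the JAL23 and scpl35 points of the JMJ24 and double knockouts are spread widely.

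BGLU19 and BGLU25 belong to the same branch of the family as PYK10, whose enzymes carry a signal that keeps them in the ER. BGLU19 measured 2.71 and 2.62 on the WT arrays, 2.50 and 2.53 with JMJ24 lost, 3.51 and 4.52 with IBM1 lost and 2.55 and 2.62 with both lost. As with BGLU15, both IBM1 knockout arrays were above the other 6, but they differed from each other by more than the lower of them differed from either WT array. The IBM1 knockout minus WT difference was 1.35 (SE 0.316) with a limma adjusted p of 0.154, and the double minus IBM1 knockout difference was -1.43 (adjusted p = 0.223). Without IBM1 knockout replicate 1, the differences were 1.85 (adjusted p = 0.00345) and -1.94 (adjusted p = 0.00299), and without replicate 2 they were 0.85 (adjusted p = 0.056) and -0.93 (adjusted p = 0.0478). Leaving out either array thus gave a call for the double against the IBM1 knockout, and leaving out replicate 1 gave one for the IBM1 knockout against WT. A group left with 1 array was assumed to vary like the others. Here the other genotypes lay between 2.50 and 2.71, little above the arrays' lower quartiles (2.49 to 2.53). Their SDs (n = 2) were 0.0669 for WT, 0.0207 for the JMJ24 knockout and 0.0457 for the double knockout. The SD of the IBM1 knockout arrays was 0.713 (n = 2).

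BGLU25 measured 4.54 and 4.72 on the WT arrays, 5.57 and 4.79 with JMJ24 lost, 6.39 and 5.97 with IBM1 lost and 5.16 and 5.62 with both lost. All 6 knockout arrays lay above both WT arrays, and the IBM1 knockout arrays were the highest. The difference from WT was 1.55 (2.93-fold, SE 0.316) in the IBM1 knockout and did not pass the test (limma adjusted p = 0.125), nor did the double minus IBM1 knockout difference of -0.79 (adjusted p = 0.457).

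BGLU28, which takes part in the breakdown of glucosinolates when sulfur is scarce, and BGLU33, a vacuolar enzyme that releases abscisic acid from its glucose ester, were the BGLU genes with the lowest IBM1 knockout values relative to WT. BGLU28 measured 6.15 and 4.79 on the WT arrays, 4.79 and 4.15 with JMJ24 lost, 4.77 and 3.46 with IBM1 lost and 5.53 and 5.54 with both lost. Replicates were more than 1 apart in WT and in the IBM1 knockout, the lower WT array was within 0.1 of the higher IBM1 knockout array, and the double knockout arrays sat inside the WT range. The IBM1 knockout minus WT difference of -1.35 (SE 0.618) did not pass the test (limma adjusted p = 0.43), nor did the double minus IBM1 knockout difference of 1.42 (adjusted p = 0.504).

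BGLU33 measured 7.06 and 7.17 on the WT arrays, 6.56 and 6.68 with JMJ24 lost, 6.51 and 6.57 with IBM1 lost and 6.48 and 6.72 with both lost. It was the one member whose 6 knockout arrays all lay below both WT arrays, a pattern that 3.49% of all probe sets showed. The difference from WT was -0.49 for the JMJ24 knockout, -0.58 (SE 0.0974) for the IBM1 knockout and -0.51 for the double knockout, with limma adjusted p of 0.831, 0.0992 and 0.526. These 3 comparisons share the WT arrays.

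BGLU40 and BGLU44, the remaining BGLU genes with a group mean of at least 5, showed no called difference. BGLU16 and BGLU42, whose group means stayed below 5, also showed none. BGLU40 measured 6.68 and 5.88 on the WT arrays, 5.74 and 5.64 with JMJ24 lost, 6.26 and 6.01 with IBM1 lost and 6.04 and 5.49 with both lost. Its WT replicates were further apart than the mean difference from WT of -0.59 with JMJ24 lost and -0.52 with both lost. BGLU44, an enzyme with beta-mannosidase activity, measured 10.16 and 9.78 on the WT arrays, 9.97 and 9.59 with JMJ24 lost, 10.33 and 10.04 with IBM1 lost and 9.92 and 10.20 with both lost, with overlap between all genotypes and WT. BGLU16 measured 3.73 and 5.01 on the WT arrays, 4.83 and 4.79 with JMJ24 lost, 4.37 and 4.83 with IBM1 lost and 3.86 and 5.29 with both lost, so that replicates of WT and of the double knockout differed by more than any pair of genotype means. BGLU42, which releases the coumarin scopoletin from its glucoside, lay between 4.34 and 5.09 on all arrays, and both of these extremes came from the double knockout, on either side of the WT values of 4.53 and 4.74.

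BGLU45 and BGLU46 act on the glucosides of monolignols, the building blocks of lignin, and lie next to each other in the genome. BGLU45 measured 2.91 and 3.16 on the WT arrays, 3.30 and 3.11 with JMJ24 lost, 3.33 and 3.51 with IBM1 lost and 3.12 and 3.39 with both lost. BGLU46 measured 3.27 and 3.33 on the WT arrays, 3.96 and 3.49 with JMJ24 lost, 3.47 and 3.96 with IBM1 lost and 3.75 and 3.56 with both lost. For BGLU46 all 6 knockout arrays were above WT, and for BGLU45 the IBM1 knockout was the one genotype with both arrays above both WT arrays. The IBM1 knockout minus WT differences were close, 0.38 for BGLU45 and 0.42 for BGLU46, and neither passed the test (limma adjusted p = 0.32 and 0.525). BGLU47, of the same branch, measured 2.63 and 2.59 on the WT arrays, 2.75 and 2.61 with JMJ24 lost, 2.85 and 3.16 with IBM1 lost and 2.63 and 2.75 with both lost. Both IBM1 knockout arrays were the highest, with a difference from WT of 0.40 (limma adjusted p = 0.218).

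Among the 4 lectins, the median difference from WT was 0.61 for the IBM1 knockout, 0.44 for the JMJ24 knockout and 0.53 for the double knockout, beside medians within 0.01 of 0 over all probe sets. None of the 4 passed the test in any contrast. JAL33 measured 7.13 and 7.12 on the WT arrays, 7.65 and 7.44 with JMJ24 lost, 7.70 and 7.85 with IBM1 lost and 7.49 and 7.83 with both lost. JAL34, its neighbour in the genome, measured 6.55 and 7.00 on the WT arrays, 7.37 and 7.08 with JMJ24 lost, 7.28 and 7.40 with IBM1 lost and 7.07 and 7.34 with both lost. For both genes every knockout array lay above both WT arrays. The IBM1 knockout minus WT difference was 0.65 (SE 0.133, limma adjusted p = 0.125) for JAL33 and 0.57 (adjusted p = 0.27) for JAL34. In the JMJ24 knockout the differences were 0.42 and 0.45, and in the double knockout 0.54 (adjusted p = 0.652) and 0.43 (adjusted p = 0.988).

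JAL23 showed the widest spread of all members. It measured 4.05 and 4.94 on the WT arrays, 5.74 and 4.18 with JMJ24 lost, 6.30 and 7.39 with IBM1 lost and 3.75 and 6.46 with both lost. The IBM1 knockout arrays lay above those of WT and of the JMJ24 knockout, but double knockout replicate 2 fell between them and double knockout replicate 1 was the lowest of the 8. The IBM1 knockout minus WT difference of 2.35 (5.10-fold, SE 1.07) had a limma adjusted p of 0.426. JAL22, separated from JAL23 by 1 protein-coding gene, measured 7.20 and 7.50 on the WT arrays, 8.05 and 7.51 with JMJ24 lost, 7.44 and 7.13 with IBM1 lost and 7.63 and 8.13 with both lost. Here the IBM1 knockout arrays were not above WT, while all 4 arrays of the JMJ24 and double knockouts were, by 0.43 and 0.53 at the mean. The JAL medians moved with single arrays: the JMJ24 knockout minus WT median ran from 0.23 without JMJ24 knockout replicate 1 to 0.65 without replicate 2, and the double knockout minus WT median from 0.29 without double knockout replicate 2 to 0.74 without replicate 1. Without WT replicate 1 or 2, the JMJ24 knockout median was 0.26 or 0.63, and without WT replicate 1 the double knockout median was 0.30.

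In JAL23, JAL22, scpl35 and SCPL27, JMJ24 knockout replicate 1 exceeded replicate 2 and double knockout replicate 2 exceeded replicate 1, each by more than 0.5. These are 4 of 53 members (7.55%), beside 1.39% of all probe sets. The same arrays paired off in the correlations over all probe sets given above. The part that this pairing has in the JMJ24 and double knockout means of these genes was not tested.

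**Figure D3:**
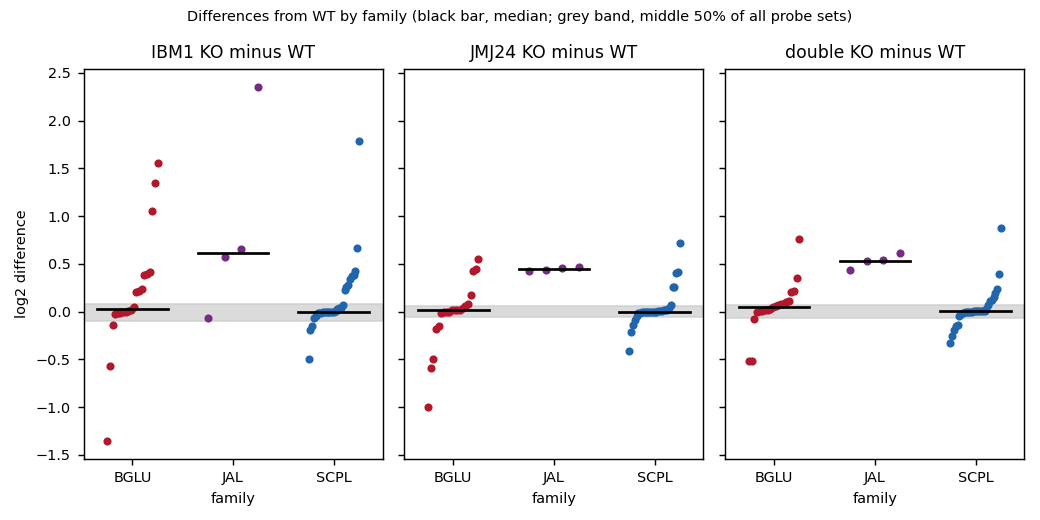
Log2 difference from WT of each gene (points) in the IBM1, JMJ24 and double knockouts, by family, with the family median (bar) and the interquartile range of all probe sets (grey band). The JAL medians are 0.61, 0.44 and 0.53, and the BGLU and SCPL medians lie within 0.06 of 0.

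None of the 29 SCPL genes passed the test in any contrast, and their median differences from WT were -0.00, -0.00 and 0.00 for the IBM1, JMJ24 and double knockouts. These medians include the 10 genes near background on all 8 arrays. Over the 9 SCPL genes with a mean of at least 5 across the 8 arrays, a split chosen after seeing the data, the median for the IBM1 knockout was 0.28, beside -0.04 over all probe sets with such a mean. Of those 9, 6 stood above WT by 0.22 to 1.78 and 3 stood at -0.20 to -0.04, none of them called. In the IBM1 knockout, 20 of 29 differed from WT by less than 0.25, beside 16679 of 22746 probe sets. Both arrays were above WT for 8 genes and below it for 3. That share without overlap, 37.9%, was near the 37.8% of all probe sets. Of the 8, scpl23 and SCPL43 were near background in WT, with differences of at least 0.14 and 0.05 against the lower quartile. The corresponding BGLU medians were 0.03, 0.01 and 0.05, and 12 of 20 BGLU genes differed by less than 0.25 in the IBM1 knockout.

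The SCPL gene with the widest difference was scpl35. It measured 4.98 and 5.23 on the WT arrays, 6.23 and 5.41 with JMJ24 lost, 7.09 and 6.68 with IBM1 lost and 5.26 and 6.70 with both lost. All 6 knockout arrays were above WT, and double knockout replicate 2 was as high as the lower IBM1 knockout array while replicate 1 was near WT. The difference between IBM1 knockout and WT was 1.78 (3.44-fold, SE 0.535, limma adjusted p = 0.229), and that between double and IBM1 knockout was -0.91 (adjusted p = 0.681).

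Smaller differences with tight replicates were seen for scpl29 and SCPL45. Values of scpl29 were 6.95 and 6.99 on the WT arrays, 7.05 and 6.87 with JMJ24 lost, 7.39 and 7.39 with IBM1 lost and 7.11 and 7.05 with both lost. Both IBM1 knockout arrays were above the other 6, by 0.42 (SE 0.0667) relative to WT and with the lowest limma adjusted p of the family, 0.086; the double knockout was lower than the IBM1 knockout by a log2 difference of -0.31 (adjusted p = 0.219). SCPL45 had the same arrangement, with 4.71 and 4.69 on the WT arrays, 4.75 and 4.61 with JMJ24 lost, 5.11 and 4.96 with IBM1 lost and 4.71 and 4.66 with both lost. Its IBM1 knockout minus WT difference was 0.34 (limma adjusted p = 0.138) and its double minus IBM1 knockout difference was -0.35 (adjusted p = 0.213).

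SCPL49, which encodes a carboxypeptidase Y, scpl46 and scpl48 also had both IBM1 knockout arrays above the 6 others. SCPL49 measured 6.33 and 5.78 on the WT arrays, 6.47 and 6.15 with JMJ24 lost, 6.80 and 6.64 with IBM1 lost and 6.02 and 6.48 with both lost, with an IBM1 knockout minus WT difference of 0.66 (limma adjusted p = 0.324). For scpl46 the values were 5.09 and 5.08 on the WT arrays, 5.09 and 4.98 with JMJ24 lost, 5.41 and 5.19 with IBM1 lost and 4.87 and 4.99 with both lost. For scpl48 they were 5.32 and 5.54 on the WT arrays, 5.13 and 5.44 with JMJ24 lost, 5.63 and 5.79 with IBM1 lost and 4.77 and 5.44 with both lost. The double minus IBM1 knockout difference was -0.38 (limma adjusted p = 0.241) for scpl46 and -0.61 (adjusted p = 0.465) for scpl48, and the scpl48 arrays of the double knockout differed from each other by more than that.

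One member had both IBM1 knockout arrays below the 6 others, scpl31 (1.89% of the members, beside 7.91% of all probe sets). It measured 4.17 and 4.95 on the WT arrays, 4.33 and 4.35 with JMJ24 lost, 4.13 and 3.99 with IBM1 lost and 4.77 and 4.26 with both lost. The lower WT array was within 0.05 of the higher IBM1 knockout array, and the mean difference was -0.50 (limma adjusted p = 0.58).

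Several SCPL genes had replicates that differed more than the genotypes did. SCPL34 measured 5.23 and 6.08 on the WT arrays, 6.16 and 5.99 with JMJ24 lost, 5.67 and 6.42 with IBM1 lost and 5.25 and 6.36 with both lost, with WT overlapping each knockout. SCPL27 measured 3.54 and 3.93 on the WT arrays, 4.54 and 3.74 with JMJ24 lost, 4.38 and 3.84 with IBM1 lost and 3.78 and 4.47 with both lost, again with overlap throughout. In scpl20 the range was 4.43 to 5.34, in scpl25 6.25 to 6.77, in scpl26 7.32 to 7.62 and in scpl50 4.25 to 4.87, and no genotype means differed by more than the widest replicate gap. The arrangement of scpl42 was different, with 5.61 and 5.93 on the WT arrays, 5.89 and 6.16 with JMJ24 lost, 5.52 and 5.63 with IBM1 lost and 5.55 and 5.72 with both lost. Its JMJ24 knockout arrays lay above those of the IBM1 and double knockouts and overlapped WT. One near-background gene, scpl23, reached 2.75 on IBM1 knockout replicate 1 and lay between 2.22 and 2.25 on the 7 other arrays.

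Both IBM1 knockout arrays stood above all 6 others for 9 of the 53 members (17%), beside 8.76% of all probe sets: BGLU15, BGLU19, BGLU25, BGLU47, scpl29, SCPL45, scpl46, scpl48 and SCPL49. All 6 knockout arrays stood above both WT arrays for 5 members (9.43%), beside 2.9% of all probe sets: BGLU25, BGLU46, JAL33, JAL34 and scpl35. These are counts of arrangements and carry no test.

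Loss of JMJ24 alone gave no called member. The lowest limma adjusted p among the 53 genes was 0.831, for BGLU33, and 0.00879% of all probe sets were called. An unadjusted p under 0.05 was found for 2 members, BGLU33 and JAL33 (3.77%, beside 4.04% of all probe sets). The JMJ24 knockout and WT arrays did not overlap for 11 members, 7 higher and 4 lower in the knockout (20.8%, beside 24.5% of all probe sets). The double knockout against WT gave 0 called members, with a lowest limma adjusted p of 0.526, for BGLU33, and an unadjusted p under 0.05 for BGLU33 and JAL33 (2 members, beside 5.54% of all probe sets). Both comparisons share the WT arrays. Of all probe sets, 0.00879% were called in that comparison. Arrays did not overlap for 15 members, 11 higher and 4 lower in the double knockout (28.3%, beside 24.6% of all probe sets). Limma-trend, the other moderated test that was run, also called 0 members in both comparisons.

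Setting the double knockout against the IBM1 knockout asked what the added loss of JMJ24 does in plants that lack IBM1. BGLU15 was the 1 called member (1 of 53, beside 0.242% of all probe sets), and it was lower in the double knockout. Arrays did not overlap for 17 members, 6 higher and 11 lower in the double knockout (32.1%, beside 31% of all probe sets). An unadjusted p under 0.05 was found for 6 members, BGLU15, BGLU19, BGLU47, scpl29, SCPL45 and scpl46, each lower in the double knockout (11.3%, beside 11.1% of all probe sets). Both shares were near the background. These are genes with both IBM1 knockout arrays above the others, so both comparisons rest on the same IBM1 knockout arrays.

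**Figure D4:**
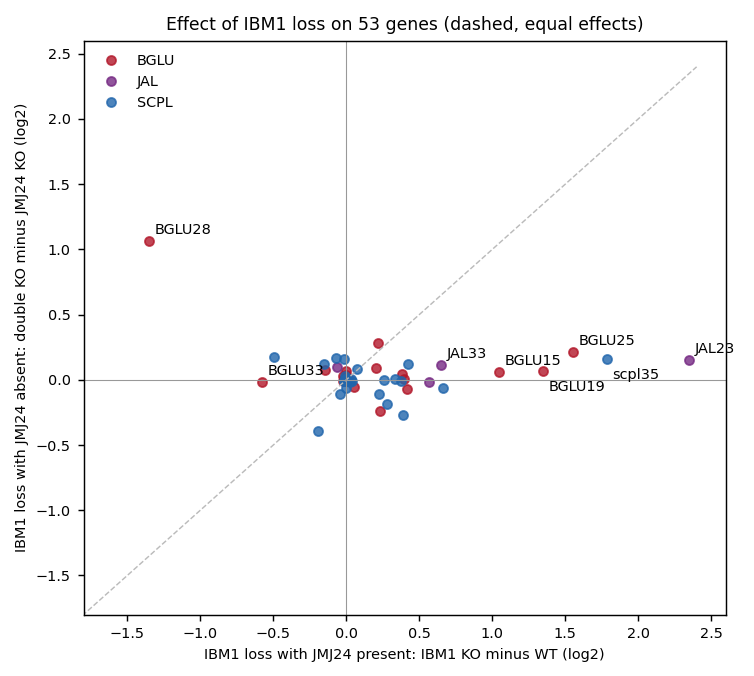
IBM1 knockout minus WT difference (horizontal axis, log2) and double knockout minus JMJ24 knockout difference (vertical axis, log2) of each gene, coloured by family, with a dashed line where both are equal. BGLU15, BGLU19, BGLU25, JAL23 and scpl35 lie between 1.05 and 2.35 on the horizontal axis and within 0.25 of 0 on the vertical axis, and BGLU28 stands alone at -1.35 and 1.06.

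The effect of losing IBM1 in plants that already lack JMJ24 was read from the double against the JMJ24 knockout. No member was called there, as was no probe set (0%), and 1 member, scpl42, had an unadjusted p under 0.05 (1.89%, beside 3.35% of all probe sets), while limma-trend also called 0 members. Arrays did not overlap for 7 members, 5 higher and 2 lower in the double knockout (13.2%, beside 20.4% of all probe sets). The difference between the IBM1 effects with and without JMJ24, the interaction, gave 0 called members in both limma fits, beside 0.0132% of all probe sets, and 9 members had an unadjusted p under 0.05 (17%, beside 7.72% of all probe sets). Its lowest limma adjusted p was 0.148, for BGLU15, with an interaction of -0.99 (SE 0.105). For other genes the interaction was -1.28 in BGLU19 (limma adjusted p = 0.588), -1.34 in BGLU25 (0.566), 2.42 in BGLU28 (0.602), -2.20 in JAL23 (0.907), -1.63 in scpl35 (0.738), -0.54 in JAL33 (0.588) and 0.56 in BGLU33 (0.462). Without IBM1 knockout replicate 1 the BGLU19 interaction was -1.79, with the arrays of the other genotypes little above the lower quartile.

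Several members lie side by side, and neighbours did not always have like values. On chromosome 2, BGLU15, BGLU28 and BGLU29 follow each other with no other protein-coding gene between. In the IBM1 knockout minus WT comparison, BGLU15 rose by 1.05, BGLU28 stood at -1.35 without passing the test, and BGLU29 was at or below the lower quartile on all 8 arrays (2.47 to 2.51). JAL23 stood 2.35 above WT in the same comparison without passing the test, whereas the IBM1 knockout arrays of JAL22, 7.44 and 7.13, overlapped those of WT. By contrast, JAL33 and JAL34 (0.65 and 0.57) and BGLU45 and BGLU46 (0.38 and 0.42) had close values, also not called. Of other neighbouring members, BGLU43 (next to BGLU44), scpl28 (next to scpl26) and scpl41 (near scpl42) had mean levels over the 8 arrays of 2.76, 2.29 and 2.29.

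**Figure D5:**
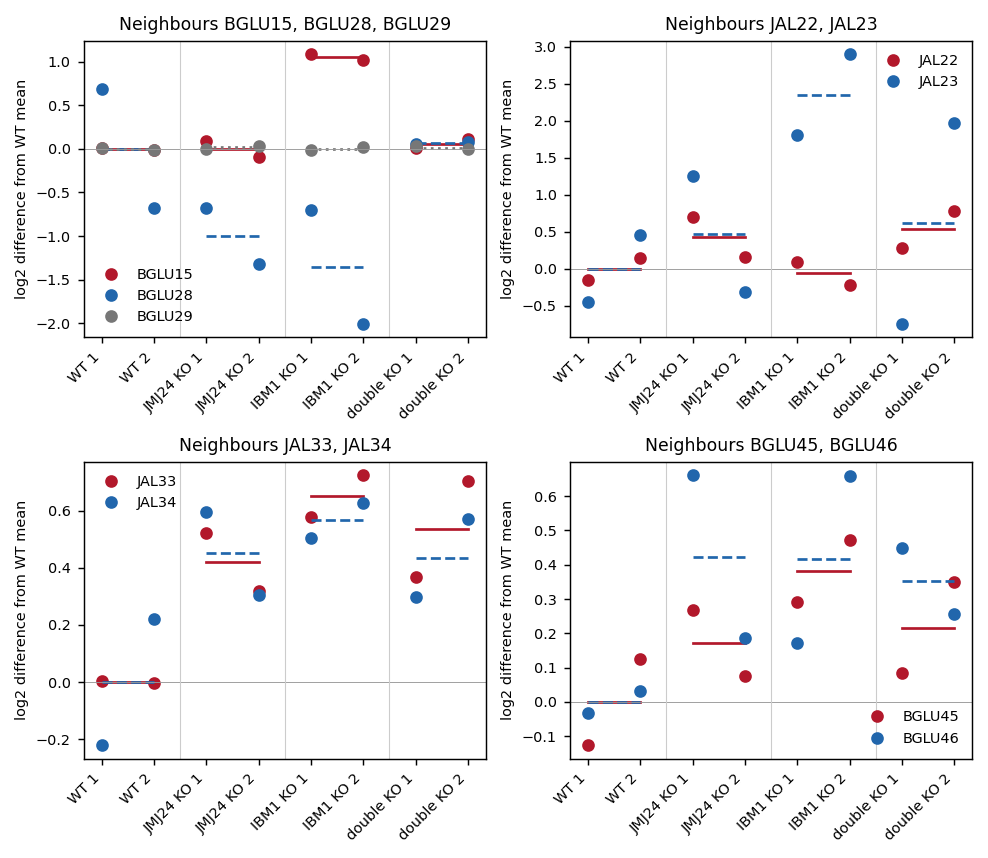
Difference of each array from the WT mean (log2, vertical axis) for neighbouring members, with arrays grouped by genotype. Horizontal bars are genotype means. BGLU15 and BGLU28 lie on opposite sides of 0 in the IBM1 knockout, with mean differences of 1.05 and -1.35, whereas JAL33 and JAL34 lie within the same range.

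Genes known to act in the same pathways as these families were listed beside them. Of the coumarin and monolignol glucoside list, 6 of 9 genes were measured and 1 passed the test in the IBM1 knockout, upward. This was AT3G13610, the enzyme that makes the precursor of scopoletin, with 2.22 and 2.21 on the WT arrays, 2.22 and 2.22 with JMJ24 lost, 2.82 and 2.83 with IBM1 lost and 2.22 and 2.26 with both lost. Only the IBM1 knockout arrays were above their lower quartile, so the difference of 0.61 is also given as a bound, at least 0.32 against that quartile (limma adjusted p = 0.0167). The double knockout arrays were also at or below their quartile, so the fitted difference of -0.58 from the IBM1 knockout (adjusted p = 0.0179) has a bound of -0.31. With 1 array left out, the adjusted p of the IBM1 knockout minus WT difference ran from 0.0251 to 0.145 and was above the threshold without either WT array (0.145) or either JMJ24 knockout array (0.051). For the double minus IBM1 knockout difference the adjusted p stayed under the threshold only without IBM1 knockout replicate 1 (0.0273) and reached 0.177 without double knockout replicate 1. Both calls were also lost with the replicate number as a block (limma adjusted p = 0.0673 and 0.0823) and with the compared groups alone (0.082 and 0.273). The same held with the double knockout numbers swapped in that block (0.0687 and 0.0813). Median centring lost the call of the double minus IBM1 knockout difference (0.0657). The list's median IBM1 knockout minus WT difference was 0.56, beside -0.01 over all probe sets. UGT72E2, which attaches glucose to monolignols, stood at 1.40 (limma adjusted p = 0.0857). COSY, which completes the coumarin ring, stood at 0.82 (adjusted p = 0.0756) and UGT72E1 at 0.51 (adjusted p = 0.596). S8H and UGT72E3, near background on all 8 arrays, stood at -0.01 and -0.02.

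The other lists had no called gene in any contrast. Of the ER body list, 2 of 8 genes were measured: NAI1, a transcription factor needed for ER bodies, had group means of 4.08 in WT and 4.17 to 4.18 in the knockouts, and NAI2, a protein that forms them, stood 0.74 above WT in the IBM1 knockout (limma adjusted p = 0.252). NAI2 measured 5.74 and 6.08 on the WT arrays, 6.45 and 6.26 with JMJ24 lost, 6.58 and 6.72 with IBM1 lost and 6.06 and 6.70 with both lost, so that 5 of the 6 knockout arrays were above both WT arrays. Of the sinapate ester and phenylpropanoid list, 5 of 15 were measured with a median IBM1 knockout minus WT difference of -0.15. The values were -0.44 for HCT (limma adjusted p = 0.216), -0.50 for UGT84A3, -0.15 for REF1, 0.02 for UGT84A1 and 0.12 for UGT84A4. UGT84A1 was near background on all 8 arrays. UGT84A4 was near background on 7 arrays and reached 2.62 on IBM1 knockout replicate 1, with a bound of 0.07 against the lower quartile. Of the flavonol glycoside list, 4 of 14 were measured with a median of 0.06. UGT78D2 stood at 0.59 (limma adjusted p = 0.228), UGT89C1 at 0.13, UGT78D1 at -0.10 and UGT78D3 at -0.01. Of the abscisic acid list, 2 of 8 were measured with a median of 0.06, and 1 of them was near background on all 8 arrays. None of the 15 genes of the glucosinolate breakdown list had a probe set under its name, so that list was not analysed here.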

How the data were processed

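Biotin-labelled, amplified RNA was measured on 8 ATH1 arrays. The authors' deposited values are log2 levels, 1 per probe set and array, from 2.02 to 13.6, and GCRMA made them, per the submitters' processing notes (version: not given in the sources used here). Precision is limited by the number of arrays. Groups came from the labels. Of 22810 probe sets, 64 controls were left out. Genes were named from the platform annotation, with symbols and neighbours taken from a RefSeq gene table (assembly TAIR10.1): 13513 probe sets named 1 gene (13436 matched), 503 named several and 8730 are unnamed here, with the targeted genes among them, so the knockouts were not checked by their own transcripts.

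With limma 3.58.1 under R 4.3.3 (lmFit, contrasts.fit, eBayes), the 8 arrays were fitted together with a mean for each genotype, leaving 4 residual and adding 1.2 prior degrees of freedom, and p-values were adjusted by Benjamini-Hochberg over 22746 probe sets for each of 6 contrasts. The fit was tested on simulated data. Genes are named by rule: called members, the 3 highest and 3 lowest per family and knockout among genes with a group above background, the 3 with the highest mean, the 4 with the widest range, and any with an unadjusted p under 0.01 (28 genes); BGLU29, BGLU42, BGLU47, scpl23 and the neighbouring pairs were added after their values were seen. Near background means at or below an array's lower quartile; no detection calls were used. Alternatives were limma-trend, added quantile normalization, median centring, a dim filter that kept probe sets with some group mean of 5 or more, the compared groups alone, the probe set with the widest range, the replicate number as a block and leaving out each array. The choice of probe set could change no member, since each had a single one. A crossed block, the removal of 2 arrays at once and medians over genes with a mean of at least 5 were chosen after seeing the data. The members and lists were chosen with earlier results of these data known.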

Additional observations from a re-analysis of the deposited data

How the results depend on the processing

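Called members numbered 1 in the IBM1 knockout against WT and 1 in the double against the IBM1 knockout; limma-trend, quantile normalization and median centring gave the same counts. Both counts fell to 0 with the compared groups alone, with the dim filter (which removes BGLU15 from the test), with the replicate block, with the crossed block, and without JMJ24 knockout replicate 1 and double knockout replicate 2 or without their counterparts. Leaving out 1 array gave 0 to 1 in both comparisons, and where it was 1 the gene was BGLU19, without IBM1 knockout replicate 1, or in the second comparison either IBM1 knockout array. The interaction count of 0 became 0 to 1, again BGLU19 without IBM1 knockout replicate 1. Deviations of same-numbered arrays correlated at -0.31 for the JMJ24 and double knockouts. For the other pairs of genotypes they correlated from 0.0367 (WT and JMJ24 knockout) to 0.208 (WT and IBM1 knockout). With 2 arrays per genotype these values cannot decide whether a replicate number marks a shared batch, and the labels name none. The replicate block changed no other call of a member. The crossed block gave BGLU15 adjusted p of 0.0672 and 0.0636 in the 2 comparisons. Family medians relative to WT moved as follows. With the dim filter, the BGLU median was -0.145 for the IBM1 knockout and -0.495 for the JMJ24 knockout, and the SCPL median for the IBM1 knockout was 0.278, over fewer genes. That filter used the means of the groups compared, and SCPL45 passed it only through its IBM1 knockout mean of 5.04. Median centring put the SCPL median for the IBM1 knockout at -0.0334. Over members with a mean of at least 5, the BGLU median was -0.341 for the JMJ24 knockout and -0.208 for the double knockout, and the SCPL median was 0.278 for the IBM1 knockout and 0.114 for the double knockout. The JAL median in the JMJ24 knockout ran from 0.23 to 0.65 and in the double knockout from 0.29 to 0.74 with 1 array left out, and took the same extremes, 0.23 and 0.65 or 0.29 and 0.74, with 2 left out. Over all probe sets, the 76 calls of the IBM1 knockout against WT became 0 with the compared groups alone or the block, 3 with the crossed block and 0 to 165 with 1 array left out, and the 55 of the double against the IBM1 knockout became 0, 0, 3 and 0 to 161, and 6 with the dim filter and 25 with quantile normalization. The interaction's 3 calls became 10 with limma-trend and 0 to 68 with 1 array left out. The causes were not tested. The IBM1 knockout minus WT differences of JAL23 (2.35, SE 1.07), BGLU25 (1.55, SE 0.316) and scpl35 (1.78, SE 0.535) did not pass the test. The smaller difference of BGLU15 (1.05, SE 0.0741), from as many arrays, passed it.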

Other observations

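Genes that carry a family name only as a synonym were left out by the naming rule, and 11 such genes are in the gene table, of which 2 had a probe set. PYK10, the main beta-glucosidase of ER bodies, measured 8.65 and 8.85 on the WT arrays, 9.00 and 8.88 with JMJ24 lost, 9.26 and 9.63 with IBM1 lost and 8.65 and 9.59 with both lost. All knockout arrays but double knockout replicate 1 were above both WT arrays, and the IBM1 knockout minus WT difference of 0.69 did not pass the test (limma adjusted p = 0.44). ATA27 was near background on all 8 arrays.

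A probe set that names both BGLU21 and BGLU22 was left out by the naming rule. It measured 4.21 and 3.91 on the WT arrays, 4.56 and 3.65 with JMJ24 lost, 5.60 and 6.42 with IBM1 lost and 4.39 and 4.50 with both lost. Both IBM1 knockout arrays were above the other 6, by 1.95 (3.87-fold, SE 0.396) relative to WT, with a limma adjusted p of 0.124. The double minus IBM1 knockout difference was -1.57 (limma adjusted p = 0.258). The other probe sets shared with a second gene, both with an SCPL gene, lay between 2.61 and 2.75 and between 2.32 and 2.36.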
